A study of Rattus norvegicus with 132 samples.

Results

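Flt1, Ptprb, Sema3g and Smad6 are the 4 vascular genes described here, taken by name from the deposited table of rat kidney, where they are 4 of 9271 genes. All 4 passed the filter on low values, which 8827 genes passed. The table holds 132 regions of interest (ROIs) of fixed rat kidney sections read with GeoMx spatial profiling, in which barcoded probes bound to the tissue are released by light from a region chosen on the slide and counted by sequencing. Regions were chosen by hand in 4 areas: the medulla, the junction of cortex and medulla (called junction here), the cortex, and the glomeruli, the filtering units within it. They came from 3 rats in each of 4 groups, RM (35 ROIs), HS (29), RM-HS (32) and Sham (36), for which the labels give no strain, age or time and do not expand RM and HS. The series names trauma-induced acute kidney injury as its subject. The probes were made for mouse genes, 1 value is given per gene, and splice forms such as soluble Flt1 are therefore not told apart.

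Flt1 encodes VEGF receptor 1, a membrane receptor with a secreted form that binds VEGF-A and placental growth factor and so limits what reaches VEGF receptor 2. Ptprb encodes the endothelial phosphatase VE-PTP, which acts on the Tie2 receptor and on VE-cadherin contacts. Sema3g is a secreted class 3 semaphorin, known in mice from arterial endothelium and from podocytes, the epithelial cells that wrap glomerular capillaries. Smad6 is an inhibitory SMAD that dampens bone morphogenetic protein (BMP) signalling and is found in endothelium under flow. Glomeruli are capillary tufts whose podocytes supply VEGF-A to the endothelium.

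Of the 4 genes, 2 matched the promoter table used here, Flt1 and Sema3g, and the 250 bases upstream of their starts are shown because both genes were called higher in RM glomeruli. Ptprb and Smad6 were not matched. They are from RefSeq, build GRCr8, at chr12:12333180-12333429 and chr16:6419775-6420024, both on the plus strand, and capitals mark matches to the motifs searched on both strands.
Flt1: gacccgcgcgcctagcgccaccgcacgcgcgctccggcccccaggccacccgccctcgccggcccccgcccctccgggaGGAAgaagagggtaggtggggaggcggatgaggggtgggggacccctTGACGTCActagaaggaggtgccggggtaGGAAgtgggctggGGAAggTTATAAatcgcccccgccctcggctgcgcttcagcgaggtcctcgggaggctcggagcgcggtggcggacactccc
Sema3g: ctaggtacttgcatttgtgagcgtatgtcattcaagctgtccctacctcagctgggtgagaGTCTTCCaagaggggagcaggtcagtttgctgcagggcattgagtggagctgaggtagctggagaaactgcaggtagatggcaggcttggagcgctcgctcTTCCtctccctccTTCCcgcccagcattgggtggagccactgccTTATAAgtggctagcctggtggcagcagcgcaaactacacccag
Neither held the ETS core CCGGAA, which 12.6% of 33469 promoters of this length hold, or the SMAD box GTCTAGAC, which 0.173% hold. The shorter SMAD element GTCT, in 84.0% of all promoters, had 1 match in Sema3g, overlapping the first of its 3 matches to the short ETS core GGAA. Flt1 also held 3 GGAA, which 93.2% of promoters hold. It held the cyclic AMP response element TGACGTCA, present in 1.59%, at bases -124 to -117 from the start. Both held TATAA, present in 24%, at -75 to -71 in Flt1 and -43 to -39 in Sema3g, each with an overlapping match on the minus strand. GGAA, TGACGTCA and TATAA were added to the search after the sequences were seen. G and C made up 73.2% of the Flt1 bases and 56.8% of the Sema3g bases, against a median of 51.2% over all promoters. A match is a string of letters and not a site shown to be bound.

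The values are signal scaled by the authors to the upper quartile of each ROI, called signal here, and whole reads could be recovered from them. Glomerular ROIs were shallow, with 17894 to 209188 reads (median 93104), against a median of 819487 in cortex. All 6 ROIs under 50000 reads were glomerular: 3 of the 5 HS ROIs and the 3 Sham ROIs on plate E. In Sham glomeruli 6 of 9 ROIs held under 10 reads of Flt1, and on plate E 29.1, 46.5 and 96.9 units of signal rested on 1, 4 and 5 reads. No value of the table was 0, even in the ROI with 17894 reads over 9271 genes. Whether values of 0 were raised before deposit cannot be told from the values. A value of 1 read may therefore stand for none. Wells fall into 12 runs of neighbours, 3 per group. The labels tie neither ROIs nor runs to animals, so ROIs of a group share animals and every p-value over ROIs is too small. HS lay wholly on plate E with 1 Sham run (12 ROIs), and RM and RM-HS lay on plate C, apart from 1 RM ROI on plate A. That ROI was left out of the tests, except in the alternative fit with no plate term. In a region, more cells of a type and more RNA per cell cannot be told apart.

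**Figure D1:**
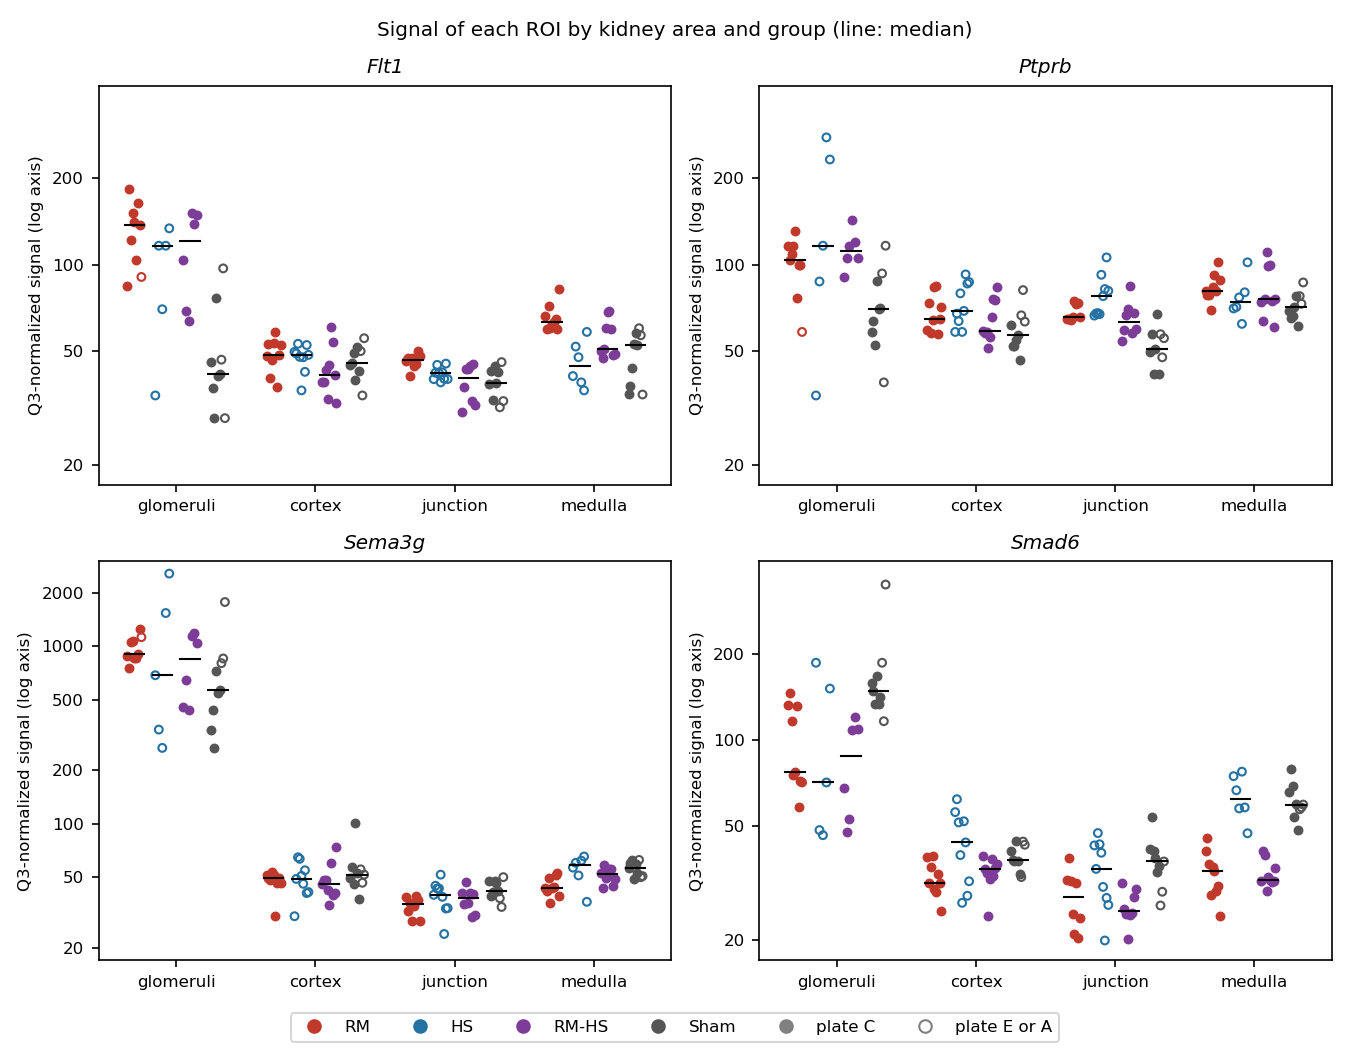
Signal of each ROI on a log axis (vertical) by kidney area (horizontal) and group (colour), with filled points for plate C, open points for plates E and A, and a line at the median. Glomerular Flt1 medians are 137 in RM, 116 in HS, 121 in RM-HS and 41.5 in Sham, and every medullary Smad6 value of RM and RM-HS lies below the lowest Sham value of 48.5.

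In Sham kidneys Sema3g and Smad6 were called higher in glomeruli than in cortex, while Flt1 and Ptprb were not called. Sema3g signal ran from 268 through a median of 565 to 1774 in 9 Sham glomeruli, against 37.8 through 51.7 to 101 in 9 Sham cortex ROIs. The ranges were far apart, and the glomerular level was 11.1-fold higher (log2 fold change 3.48 ± 0.19 SE, limma adjusted p = 3.57e-36). Smad6 signal was 116, 148 and 349 (lowest, median, highest) in Sham glomeruli and 33.2, 38.1 and 44.4 in Sham cortex. These ranges did not overlap either, a 4.05-fold difference (log2 2.02 ± 0.15, limma adjusted p = 2.30e-23). Flt1 signal had medians of 41.5 in Sham glomeruli and 45.5 in Sham cortex (log2 0.0031 ± 0.15), and Ptprb had medians of 69.8 and 56.6 in these areas (log2 0.23 ± 0.14, limma adjusted p = 0.18). Thus 2 of 4 genes were called in this comparison, in which 38.4% of all genes tested were called. The share of all genes whose ranges did not overlap between these areas was not counted. Against the negative probe of the same ROI, which moved the median of all genes by 0.49, Flt1 (log2 0.50) and Ptprb (log2 0.73) were called as well. The Flt1 value was close to the size of that shift and the Ptprb value above it, and no other setting called either gene. On plate C alone the log2 fold changes were 3.03 for Sema3g and 1.89 for Smad6, and on plate E alone 4.36 and 2.27.

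The other areas of Sham differed less. Smad6 was higher in Sham medulla than in Sham cortex (log2 0.62 ± 0.15, limma adjusted p = 0.00154), with medians of 59.5 and 38.1, and was the 1 gene of 4 called there against 11.7% of all genes. That call was lost without Sham run 1 (log2 0.51, adjusted p = 0.083), on plate E alone (log2 0.54) and with 1 mean per run (adjusted p = 0.223). No member was called between junction and cortex of Sham, where log2 fold changes lay between -0.32 and -0.075, none had an unadjusted p under 0.05, edgeR called none and 7.91% of all genes were called. Over all groups, how far the signal stood above the negative probe differed by gene and area. In 29 glomerular ROIs, Flt1 exceeded the probe more than 2-fold in 26, Ptprb in 27, and Sema3g and Smad6 in 29. In 36 cortex ROIs the numbers were 8 for Flt1, 28 for Ptprb, 12 for Sema3g and 4 for Smad6, and in 34 junction ROIs they were 12, 30, 6 and 2 in the same order of genes. In 33 medullary ROIs they were 28, 33, 28 and 17. Smad6 thus lay near the probe in cortex and at the junction, and Ptprb lay above it in most ROIs of each area. In medulla Smad6 exceeded the probe more than 2-fold in 9 of 9 Sham and 6 of 6 HS ROIs. It did so in only 2 of 9 RM and 0 of 9 RM-HS ROIs.

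In each of the 3 injury groups all 4 genes were called higher in glomeruli than in cortex of the same group. Flt1 was 2.72-fold higher in glomeruli in RM, 1.78-fold in HS and 2.44-fold in RM-HS (limma adjusted p at most 3.64e-05). Ptprb was 1.55-fold higher in RM, 1.58-fold in HS and 1.73-fold in RM-HS, with adjusted p-values of at most 0.000624. Sema3g was 19.7-fold higher in RM and 15.5-fold in both HS and RM-HS, and Smad6 was 2.84-fold higher in RM, 2.07-fold in HS and 2.25-fold in RM-HS. Of all genes tested, 30.4% were called in RM, 42.3% in HS and 25.1% in RM-HS. With run means the Ptprb calls were lost in all 3 groups (adjusted p of 0.11, 0.221 and 0.0555), and without HS run 3 those of Flt1 (log2 0.48) and Ptprb (log2 0.10) in HS.

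Sema3g and Smad6 were also called higher in glomeruli than at the junction and in medulla in all 4 groups. Against the junction, glomeruli were higher in all 4 genes in RM, HS and RM-HS (28.5%, 41% and 25.9% of all genes called) and in 3 of 4 genes in Sham (37.7%). Sema3g was 26.9-fold higher in glomeruli than at the junction in RM, 19.2-fold in HS, 19.6-fold in RM-HS and 13.9-fold in Sham. Ptprb was 1.54-fold higher in RM, 1.47-fold in HS, 1.70-fold in RM-HS and 1.33-fold in Sham (limma adjusted p = 0.0119 in Sham). Against medulla, glomeruli were higher in 3 of 4 genes in RM (17.5%), 4 in HS (30.1%), 4 in RM-HS (16.9%) and 2 in Sham (30.6%), and Smad6 was 2.76-fold higher in RM, 1.45-fold in HS, 2.27-fold in RM-HS and 2.63-fold in Sham. With run means, glomeruli against junction called 3 members in RM, 3 in HS, 3 in RM-HS and 2 in Sham, and glomeruli against medulla called 3 in RM, 1 in HS, 3 in RM-HS and 2 in Sham.

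Outside glomeruli, Flt1 was higher in medulla than at the junction in RM (log2 0.49 ± 0.15, limma adjusted p = 0.0115) and RM-HS (log2 0.52 ± 0.15, adjusted p = 0.00768). It was also higher in medulla than in cortex in RM (log2 0.43 ± 0.15, adjusted p = 0.0295). Smad6 was higher in medulla than at the junction in HS (log2 0.82 ± 0.17, adjusted p = 0.000133) and Sham (log2 0.70 ± 0.15, adjusted p = 0.000236), and higher than in cortex in HS (log2 0.51 ± 0.17, adjusted p = 0.0379). Ptprb was higher in medulla than at the junction in Sham (log2 0.47 ± 0.14, adjusted p = 0.0125). Medulla against junction thus called 1 member in RM (15.7% of all genes), 1 in HS (19%), 1 in RM-HS (14.3%) and 2 in Sham (10.7%), and medulla against cortex called 1 in RM (14.7%), 1 in HS (11.5%) and none in RM-HS (10.9%, with 2 at an unadjusted p under 0.05 and 2 by edgeR). With run means none of these calls was made. Junction against cortex called no member in RM (8.37%), HS (9.03%) or RM-HS (9.6%), with 1 in each at an unadjusted p under 0.05 and none by edgeR.

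Flt1 rose in glomeruli of every injury group. Its glomerular signal was 84.0, 137 and 184 (lowest, median, highest) in 9 RM ROIs, 34.9, 69.8, 116, 116 and 134 in the 5 HS ROIs, 63.4, 121 and 151 in 6 RM-HS ROIs, and 29.1, 41.5 and 96.9 in 9 Sham ROIs. RM values lay above every Sham value on plate C, which 1.76% of all genes showed in either direction, while HS and RM-HS ranges overlapped with Sham. The signal was 2.91-fold higher in RM than in Sham glomeruli (log2 1.54 ± 0.19, limma adjusted p = 1.41e-10), 1.79-fold higher in HS (log2 0.84 ± 0.23, adjusted p = 0.0116) and 2.30-fold higher in RM-HS (log2 1.20 ± 0.20, adjusted p = 8.51e-06). Of the 4 genes, 4 were called in RM glomeruli (12.8% of all genes), 2 in HS (9.52%) and 3 in RM-HS (6.62%).

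The Flt1 rise in RM glomeruli was called under each alternative, with log2 values of 1.60 on plate C alone and 1.60 without the ROIs under 50000 reads. With 1 mean per run and area, the closest these data come to single animals, it was 1.56 in RM (adjusted p = 0.0005) and 1.14 in RM-HS (adjusted p = 0.0191). The RM-HS call was lost without RM-HS run 3 (log2 0.74, adjusted p = 0.0577). The 3 ROIs of that run held 138 to 151, against 63.4 and 68.7 in run 2. In HS the call was lost with run means (log2 0.64, adjusted p = 0.211), in edgeR on reads (log2 1.07, adjusted p = 0.114), on plate E alone (log2 0.72, adjusted p = 0.32) and without HS run 3 (log2 0.48, adjusted p = 0.11).

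Flt1 differed less in the other areas. In RM medulla it was 59.4, 62.9 and 82.0, against 35.2, 52.5 and 59.9 in Sham medulla. This difference was not called (log2 0.48 ± 0.19, limma adjusted p = 0.129), although on plate C the 9 RM values lay above the 6 Sham values, as 9.82% of all genes did in either direction. On plate C alone the change was called (log2 0.50, adjusted p = 0.0194), as it was in edgeR and without HS run 3 (adjusted p = 0.0341), but not with run means (adjusted p = 0.751). Averaged over areas, Flt1 was 1.51-fold higher in RM (log2 0.60 ± 0.14, limma adjusted p = 0.000644), and 32 of 34 RM ROIs exceeded the Sham mean of their area. Without Sham run 1 this was log2 0.47 (adjusted p = 0.213). The averages in HS (log2 0.21 ± 0.18) and RM-HS (log2 0.34 ± 0.14, adjusted p = 0.141) were not called.

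Ptprb was called higher in RM and RM-HS glomeruli. Its glomerular signal was 58.2, 103 and 131 in RM (lowest, median, highest), 34.9, 87.2, 116, 233 and 278 in HS, 90.5, 111 and 143 in RM-HS, and 38.8, 69.8 and 116 in Sham. Ranges overlapped with Sham except for RM-HS on plate C, where all 6 values exceeded the 6 Sham values, as 0.827% of all genes did in either direction. Ptprb was 1.59-fold higher in RM than in Sham glomeruli (log2 0.67 ± 0.18, limma adjusted p = 0.00575) and 1.68-fold higher in RM-HS (log2 0.75 ± 0.19, adjusted p = 0.0076). In HS the difference of log2 0.59 ± 0.22 missed the threshold (adjusted p = 0.075). On plate C alone the values were 0.66 in RM and 0.74 in RM-HS, and on plate E alone 0.60 in HS.

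The 2 highest Ptprb values in HS glomeruli, 233 and 278, came from HS run 3. Without that run the HS value was log2 -0.11, and without the ROIs under 50000 reads it was 1.58 (adjusted p = 1.01e-07). The latter fit kept only these 2 HS glomerular ROIs and no Sham glomeruli of plate E, so it rests on 1 HS run. In RM glomeruli the call was lost in edgeR on reads (adjusted p = 0.109), with run means (adjusted p = 0.254) and without Sham run 1 (log2 0.55, adjusted p = 0.13). In RM-HS glomeruli it was lost in edgeR (adjusted p = 0.175), with run means (adjusted p = 0.269), against the negative probe (adjusted p = 0.104) and without RM-HS run 3 or Sham run 1 (adjusted p of 0.122 and 0.134). Averaged over areas, Ptprb was 1.34-fold higher in RM (log2 0.42 ± 0.13, limma adjusted p = 0.0222), a call lost with run means (adjusted p = 0.349), with no plate term (log2 0.30) and without any RM run, Sham run 1 or Sham run 2 (adjusted p between 0.0618 and 0.493). It was log2 0.39 ± 0.13 in RM-HS (adjusted p = 0.0551; 2.63e-05 on plate C alone) and 0.32 ± 0.17 in HS. Over all areas 31 of 34 RM, 23 of 29 HS and 26 of 32 RM-HS ROIs exceeded the Sham mean of their area.

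**Figure D2:**
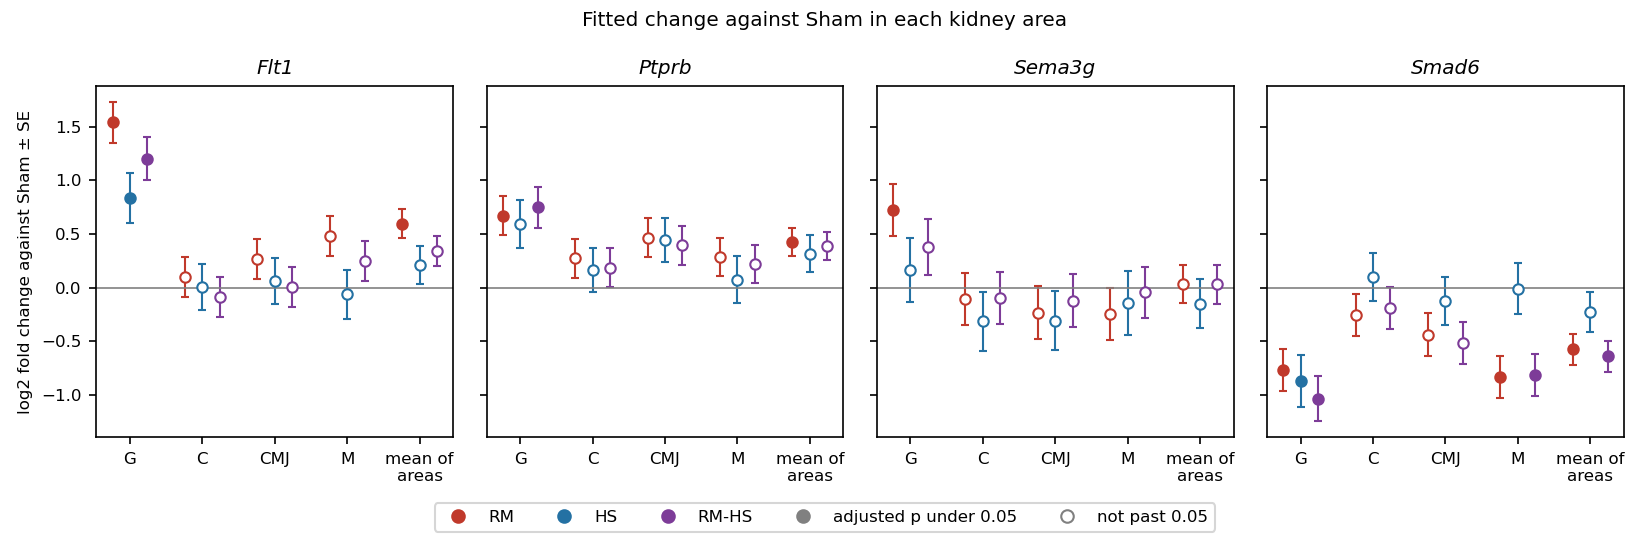
Fitted log2 fold change against Sham (vertical, ± SE) of each gene in glomeruli, cortex, junction, medulla and the mean of the 4 areas (horizontal), for RM, HS and RM-HS, filled where the adjusted p was under 0.05. Flt1 rises in glomeruli of the 3 groups, with 1.54 in RM, and Smad6 falls in glomeruli of all 3 and in medulla of RM and RM-HS, at -0.83 and -0.82.

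Sema3g was called higher in RM glomeruli. Its signal was 750, 907 and 1256 (lowest, median, highest) in RM glomeruli, 268, 339, 686, 1538 and 2565 in HS, 439, 844 and 1192 in RM-HS, and 268, 565 and 1774 in Sham. RM values spanned the narrowest of the 4 ranges and lay above the 6 Sham values on plate C, which ended at 723, but not above the 3 of plate E, from 803 upwards. On plate C the RM and Sham ranges did not overlap in 1.76% of all genes. The signal was 1.65-fold higher in RM than in Sham glomeruli (log2 0.72 ± 0.24, limma adjusted p = 0.0342), and not called in HS (log2 0.16 ± 0.30) or RM-HS (log2 0.38 ± 0.26, adjusted p = 0.414). Neither RM-HS against RM (log2 -0.34 ± 0.25, adjusted p = 0.514) nor RM-HS against HS (log2 0.22 ± 0.36, adjusted p = 0.802) was called for Sema3g there, and RM was not set against HS.

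The Sema3g values turned on single runs. On plate C alone the log2 fold change was 1.05 in RM (adjusted p = 1.12e-06) and 0.72 in RM-HS (adjusted p = 0.00271). The RM call was lost with quantile normalization (log2 0.35), in edgeR (adjusted p = 0.0645), with run means (adjusted p = 0.3), and without RM run 1, 2 or 3 or Sham run 1 or 2, with the smallest value of 0.29 without Sham run 1. The highest HS values, 1538 and 2565, came from HS run 3. Without that run Sema3g was lower in HS (log2 -0.76, adjusted p = 0.0184), and without HS run 2 it was higher (log2 1.04, adjusted p = 0.00646). Without the ROIs under 50000 reads, which left only HS run 3 among HS glomeruli, it was 2.34. On plate E alone it was -0.50, so the sign in HS glomeruli was not settled. Outside glomeruli no difference was called, and averages over areas were 0.036 in RM, -0.15 in HS and 0.031 in RM-HS on the log2 scale.

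Smad6 fell in glomeruli of all 3 injury groups and in medulla of RM and RM-HS. Its glomerular signal was 58.2, 77.5 and 145 in RM (lowest, median, highest), 46.5, 48.5, 71.1, 151 and 186 in HS, 47.6, 88.2 and 120 in RM-HS, and 116, 148 and 349 in Sham. RM-HS values lay below all 6 Sham values on plate C, and 0.827% of all genes had ranges that did not overlap there. In RM the values were 116 to 145 in run 1, 75.6 to 132 in run 2, and 58.2 and 71.8 in run 3. Sham exceeded RM 1.70-fold (log2 -0.76 ± 0.20, limma adjusted p = 0.00386), HS 1.82-fold (log2 -0.87 ± 0.24, adjusted p = 0.0129) and RM-HS 2.05-fold (log2 -1.03 ± 0.21, adjusted p = 0.000423). On plate C alone the values were -0.62 in RM and -0.89 in RM-HS, both called.

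Among glomerular values the RM-HS fall of Smad6 was called with run means too (log2 -1.14, adjusted p = 0.0384), but not without RM-HS run 2 (log2 -0.71, adjusted p = 0.0684). The RM call was lost with run means (adjusted p = 0.129), against the negative probe (log2 -0.53, adjusted p = 0.054) and without RM run 3 (log2 -0.56, adjusted p = 0.0909). In HS the 2 lowest values, 46.5 and 48.5, came from 4 and 5 reads of HS run 2. Without that run the HS value was log2 -0.29 (adjusted p = 0.435), without ROIs under 50000 reads -0.15 (adjusted p = 0.782), in edgeR -0.49 (adjusted p = 0.75), with run means -0.72 (adjusted p = 0.194) and on plate E alone -1.14 (adjusted p = 0.115). The HS glomerular ROIs of 50000 reads or more were all from HS run 3.

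In medulla, where Smad6 rested on 48 to 174 reads per ROI in RM, RM-HS and Sham, the groups stood apart. Signal was 24.4, 34.7 and 45.5 in RM, 29.7, 32.5 and 41.1 in RM-HS, and 48.5, 59.5 and 79.1 in Sham, so that neither injury range overlapped with Sham over both plates. Ranges did not overlap in 6.22% of all genes in RM medulla and 5.60% in RM-HS medulla. Sham exceeded RM 1.78-fold (log2 -0.83 ± 0.20, limma adjusted p = 0.00131) and RM-HS 1.76-fold (log2 -0.82 ± 0.20, adjusted p = 0.0022). Means of the 3 runs were 41.1, 33.1 and 28.4 in RM, 37.6, 31.8 and 33.2 in RM-HS, and 71.4, 54.0 and 58.3 in Sham. With run means the calls were lost (adjusted p of 0.182 and 0.263), as they were without Sham run 1 (log2 -0.68 in RM and -0.66 in RM-HS). HS medulla spanned 47.3 to 77.5, overlapping with Sham (log2 -0.0088 ± 0.24).

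Averaged over areas, Smad6 was lower in RM (log2 -0.57 ± 0.14, limma adjusted p = 0.00241) and in RM-HS (log2 -0.64 ± 0.15, adjusted p = 0.000803) but not called in HS (log2 -0.22 ± 0.18). Only 2 of 34 RM ROIs and 1 of 32 RM-HS ROIs exceeded the Sham mean of their area, against 14 of 29 HS ROIs. These calls were lost with run means (adjusted p of 0.0916 and 0.0546), without Sham run 1, and without RM run 3 (log2 -0.44) or RM-HS run 2 (log2 -0.51). The averages called 3 of 4 genes in RM (8.30% of all genes), none in HS (0.170% of all genes, with none at an unadjusted p under 0.05 and Ptprb called by edgeR) and 1 in RM-HS (6.83%).

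Outside glomeruli and apart from Smad6 in RM and RM-HS medulla, no member was called against Sham in a single area with the settings of the fit reported here. In cortex log2 fold changes lay between -0.25 and 0.27 in RM, -0.31 and 0.16 in HS, and -0.18 and 0.19 in RM-HS, with 5.49%, 0.0793% and 3.78% of all genes called. None of these had an unadjusted p under 0.05, and edgeR called none. At the junction the values lay between -0.44 and 0.47 in RM, -0.31 and 0.45 in HS, and -0.51 and 0.40 in RM-HS, and 5.64%, 0.283% and 6.15% of all genes were called. There 2, 1 and 2 of 4 members had an unadjusted p under 0.05, and edgeR called 3, 1 and 2. The percentages are from limma, and the shares of all genes that edgeR called in areas outside glomeruli are not given here. In the RM average edgeR called 3574 genes against 733 in limma, and in RM glomeruli 230 against 1133. Smad6 at the RM-HS junction (log2 -0.51, adjusted p = 0.131) was called lower with quantile normalization (adjusted p = 0.016), in edgeR (0.00143), on plate C alone (0.00145), without ROIs under 50000 reads (0.0254), and without HS run 3 or Sham run 3. At the RM junction Smad6 was called lower on plate C alone (log2 -0.56, adjusted p = 0.00704). Ptprb at the RM junction (log2 0.47, adjusted p = 0.144) was called higher on plate C alone (adjusted p = 0.0139), without ROIs under 50000 reads (0.0135) and without HS run 3, and at the HS junction without Sham run 3 (adjusted p = 0.0464). Without Sham run 3 no Sham ROI was left on plate E, so that HS call cannot be told apart from a difference between plates. In medulla 5.96% of all genes were called in RM, 0.374% in HS and 4.50% in RM-HS, and the members not called lay between -0.24 and 0.48 in RM, -0.14 and 0.076 in HS, and -0.044 and 0.25 in RM-HS. In RM medulla 2 of 4 members, Smad6 included, had an unadjusted p under 0.05 and edgeR called 3, among them Ptprb (log2 0.33, adjusted p = 0.0225). In HS medulla none had such a p or was called by edgeR, and in RM-HS medulla it was Smad6 alone.

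The injury effect on Flt1 differed between areas in an F test over the 4 areas, with limma adjusted p = 3.92e-08 in RM, 0.0104 in HS and 7.60e-06 in RM-HS. For Sema3g it differed in RM (adjusted p = 0.0163), and for Smad6 in HS (adjusted p = 0.0099) and RM-HS (adjusted p = 0.0281). The other 6 F tests were not called, and the test called 9.72% of all genes in RM, 13.6% in HS and 7.51% in RM-HS. With run means, of these 12 tests only that of Flt1 in RM was called (adjusted p = 0.0242). The Flt1 call in RM-HS was lost without RM-HS run 3 (adjusted p = 0.16), that in HS without HS run 2 or 3 or Sham run 1, that of Sema3g without any RM run or Sham run 1 or 2, that of Smad6 in HS without HS run 2 or Sham run 3, and that of Smad6 in RM-HS without RM-HS run 1 or 2 or Sham run 3.

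No member was called between RM-HS and RM or between RM-HS and HS, in the average or in any area. Of all genes, RM-HS over RM called 0.227% in the average, 1.89% in glomeruli, 0.589% in medulla, 0.408% at the junction and 0% in cortex. RM-HS over HS called 1.09% in the average, 2.95% in glomeruli, 1.98% in medulla, 1.3% at the junction and 0.464% in cortex. At an unadjusted p under 0.05 there was Flt1 in the average against RM (log2 -0.25 ± 0.12) and Smad6 in medulla against HS (log2 -0.81 ± 0.28). edgeR called 1 member in 4 of these 10 comparisons and none in the others. Without HS run 3, RM-HS and HS glomeruli differed in 3 members, and without RM-HS run 3, RM-HS and RM glomeruli differed in 1. The shares of all genes called without these runs are not given here. All HS glomerular ROIs left without HS run 3 held under 50000 reads. In glomeruli the RM-HS effect on Flt1 was smaller than the sum of the RM and HS effects (interaction log2 -1.18 ± 0.30, limma adjusted p = 0.00766). It was the 1 member called there, against 7.58% of all genes, and the call was lost with quantile normalization (log2 -0.90), in edgeR (adjusted p = 0.0533), with run means (adjusted p = 0.12) and without RM-HS run 2 (log2 -0.84). Averaged over areas, the interaction called none of 4 members, 1 had an unadjusted p under 0.05, edgeR called 2, and limma called 0.125% of all genes. In cortex, junction and medulla none of the 4 was called or had an unadjusted p under 0.05, and edgeR called 1 at the junction. There limma called 0.068%, 0.181% and 0.34% of all genes, and the shares that edgeR called are not given here.

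**Figure D3:**
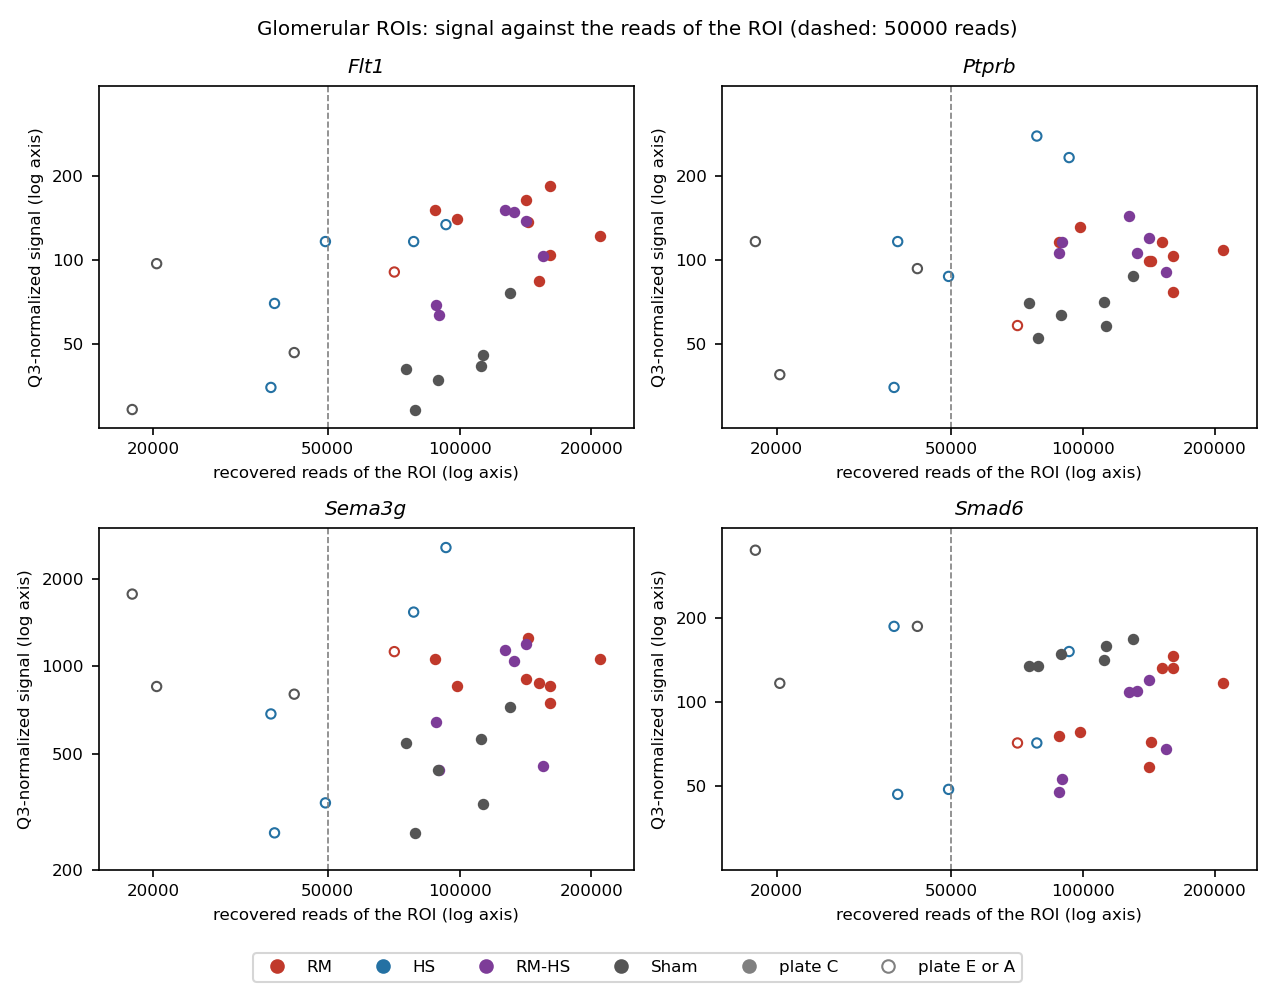
Signal (vertical, log axis) of each glomerular ROI against the reads recovered for that ROI (horizontal, log axis), by group (colour) and plate (filled for C, open for E and A), with a dashed line at 50000 reads. 3 HS ROIs and the 3 Sham ROIs of plate E lie left of the line, among them the highest Sham values of Sema3g (1774) and Smad6 (349).

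Depth and cell markers moved with some of these results. Median reads of glomerular ROIs were 143427 in RM, 49405 in HS, 130292 in RM-HS and 79136 in Sham. Summed signal of 11 endothelial genes other than Flt1 and Ptprb (of 21 listed) was 765 to 905 in RM glomeruli, 640 to 971 in HS, 619 to 888 in RM-HS and 565 to 814 in Sham. Summed signal of 9 podocyte markers (of 12 listed) was 905 to 1497 in RM glomeruli, 512 to 1908 in HS, 687 to 1203 in RM-HS and 587 to 2006 in Sham. No value of the table was 0 for any gene, so the absence of 0 says nothing about these markers. The ranges overlapped. In Sham, 7 of 9 podocyte markers were higher in glomeruli than in cortex and 1, Podxl (podocalyxin), was lower (log2 -0.41 ± 0.14, limma adjusted p = 0.0139), while 6 of 7 proximal tubule markers were lower and none higher, in a comparison that called 38.4% of all genes. The part of depth and of cell content in these results was not tested.

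Among the 10 other endothelial genes tested, Erg, an ETS factor of endothelium, was the 1 gene called higher in RM glomeruli (log2 0.71 ± 0.17, limma adjusted p = 0.00127). Erg was also higher in HS (log2 0.80 ± 0.21, adjusted p = 0.00624) and RM-HS glomeruli (log2 0.58 ± 0.18, adjusted p = 0.0292). Cdh5, which encodes VE-cadherin, was higher in RM-HS (log2 0.93 ± 0.22, adjusted p = 0.00365), and Robo4, an endothelial guidance receptor, was lower in HS (log2 -0.91 ± 0.30, adjusted p = 0.0344). The medians over these 10 genes were 0.22 in RM, 0.21 in HS and 0.055 in RM-HS, beside 0.042 in RM, -0.028 in HS and 0.063 in RM-HS over all genes. Called were 1 of 10 in RM, 2 in HS and 2 in RM-HS glomeruli, beside 12.8%, 9.52% and 6.62% of all genes. None of the 10 was called in the averages over areas. In Sham glomeruli over cortex 5 of the 10 were called higher (Nos3, Fli1, Ehd3, Cldn5 and Sox18) and none lower, where 38.4% of all genes were called. The median over the 10 was 0.25 there, beside -0.27 over all genes. The genes named for single areas were chosen after their values were seen, and Pecam1, Kdr, Tek, Emcn and Eng, among others, were not analysed here.

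In the VEGF list, 5 genes besides Flt1 were tested. Nrp1, the VEGF and semaphorin co-receptor neuropilin 1, was higher in RM glomeruli (log2 0.51 ± 0.17, limma adjusted p = 0.0319), and Pgf, the placental growth factor that binds Flt1, was lower in HS glomeruli (log2 -0.86 ± 0.29, adjusted p = 0.041). None of the 5 was called in RM-HS glomeruli, so that 1 of 5 was called in RM, 1 in HS and none in RM-HS, beside 12.8%, 9.52% and 6.62% of all genes. In Sham the ligand Vegfa was higher in glomeruli than in cortex (log2 0.59 ± 0.17, adjusted p = 0.00367), as was Nrp1 (log2 0.32 ± 0.13), while Nrp2 was lower (log2 -0.55 ± 0.15). Of the angiopoietin and Tie list only Angpt1, the Tie2 ligand, was tested beside Ptprb; it was lower in Sham glomeruli than in Sham cortex (log2 -0.46 ± 0.16) and was not called between any injury group and Sham.

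Among 8 semaphorin and receptor genes other than Sema3g, Sema3f was higher in RM glomeruli (log2 0.96 ± 0.15, limma adjusted p = 4.83e-07) and in the RM average (log2 0.65 ± 0.11, adjusted p = 1.03e-06). In RM glomeruli Nrp1 rose too and Plxna4, a plexin receptor, fell (log2 -0.61 ± 0.22). In HS glomeruli Sema3e (log2 1.17 ± 0.29) and Sema3f (log2 0.58 ± 0.18) rose, and Sema3d (log2 -0.85 ± 0.23) and Plxnd1, the receptor of Sema3e (log2 -0.78 ± 0.25), fell. Sema3f was also higher in RM cortex (log2 0.51 ± 0.15) and RM medulla (log2 0.79 ± 0.15). None of the 8 was called in RM-HS glomeruli. Of the 8, 3 were thus called in RM glomeruli and 4 in HS, beside 12.8% and 9.52% of all genes, with 6.62% in RM-HS, and their medians were -0.19 in RM, -0.24 in HS and -0.0044 in RM-HS.

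Of 17 BMP and SMAD genes other than Smad6, 3 rose in RM glomeruli and none fell, where 12.8% of all genes were called: Bmpr2, a type II BMP receptor (log2 0.79 ± 0.20), Smad5, a SMAD that transmits BMP signals (log2 0.97 ± 0.17), and Smurf2, a ubiquitin ligase (log2 0.55 ± 0.19). In HS glomeruli 1 fell, Bmp7 (log2 -0.90 ± 0.27), and in RM-HS glomeruli 1 fell, the other inhibitory SMAD, Smad7 (log2 -0.55 ± 0.17), beside 9.52% and 6.62% of all genes. In the RM average Smad5 (log2 0.42 ± 0.13) and Id2, a BMP target (log2 0.65 ± 0.19), rose. Medians over the 17 genes in glomeruli were -0.037 in RM, 0.13 in HS and -0.068 in RM-HS, beside 0.042, -0.028 and 0.063 over all genes. Outside glomeruli, Id2 rose in RM cortex and at the RM junction, and Id4 fell at the RM junction (log2 -1.56 ± 0.24). At the RM-HS junction Id1 rose, and Bmp4 and Id4 (log2 -1.02 ± 0.24) fell. No other call among the 17 was made against Sham in a single area outside glomeruli. Of all genes, 5.49% were called in RM cortex, 5.64% at the RM junction and 6.15% at the RM-HS junction. In Sham, Smad7 (log2 0.62 ± 0.12) and Id1 (log2 0.66 ± 0.14) were higher in glomeruli than in cortex, as Smad6 was, and Id2 (log2 -1.30 ± 0.20), Bmp4, Smad5 and Id4 were lower.

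**Figure D4:**
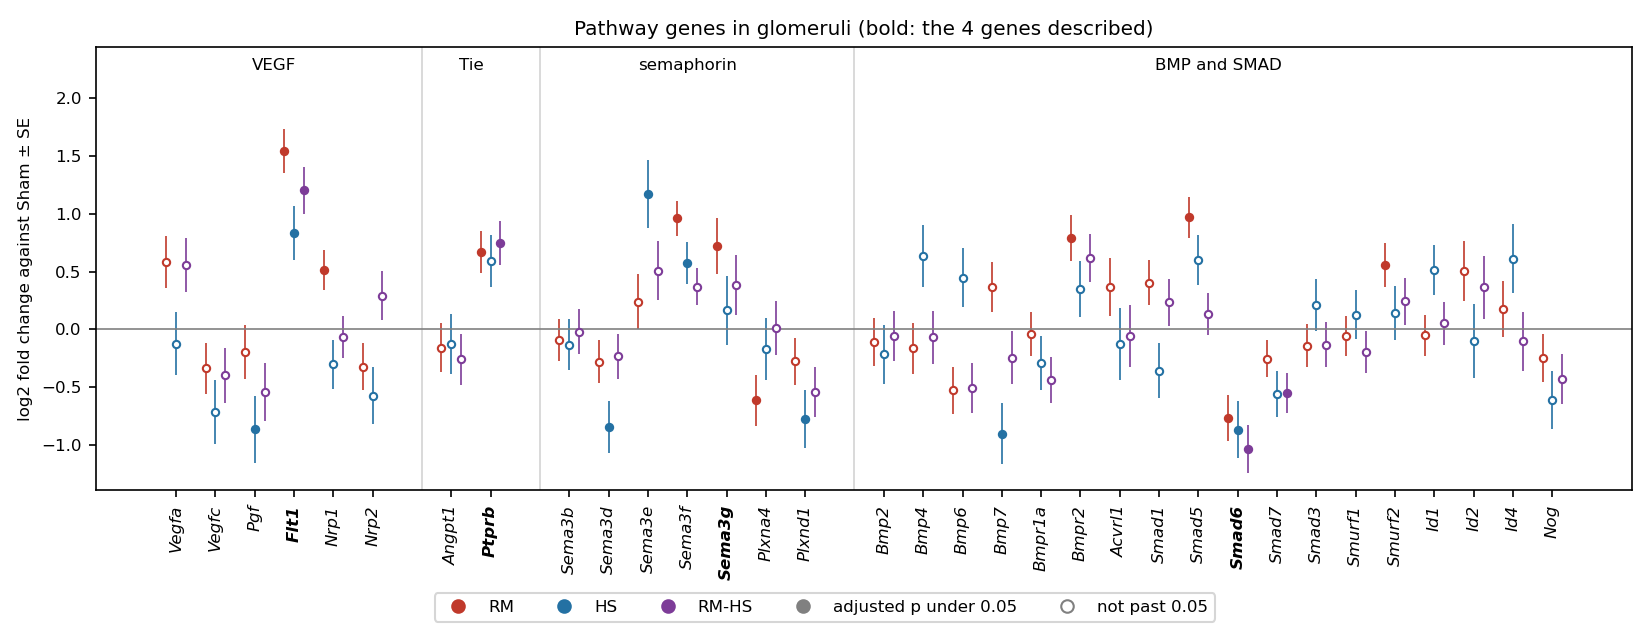
Log2 fold change against Sham in glomeruli (vertical, ± SE) of the tested genes of the VEGF, Tie, semaphorin and BMP lists (horizontal) for RM, HS and RM-HS, filled where the adjusted p was under 0.05. Flt1 has the highest RM value, 1.54, and Smad6 the lowest RM value, -0.76.

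Over the 16 means of group and area, the genes whose log2 signal was most correlated with each member were named. For Flt1 these were Cd81 (Pearson r = 0.944), Cemip2, Amotl1, Lypd1 and Cp, down to r = 0.933. For Ptprb they were Pagr1a (r = 0.883), Arhgef17, Flt1 (r = 0.877), Slc48a1 and Tpm1. For Sema3g they included Prg4 (r = 0.988), Nes, Clec1a and Synpo, of which Synpo is a podocyte marker. For Smad6 they were Pbx2 (r = 0.935), Sipa1, She, Lysmd2 and Slc44a2. The 16 points share libraries, plates and depth, and glomerular means weigh heavily: Sema3g and Smad6 had r of -0.902 and -0.903 with the mean log2 reads of the ROIs, Flt1 -0.564 and Ptprb -0.608. Among the 4 genes r was 0.877 for Flt1 with Ptprb, 0.872 for Sema3g with Smad6 and 0.525 for Flt1 with Smad6.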

How the data were processed

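GeoMx whole-transcriptome probes for mouse were read in 132 ROIs of 4 µm fixed rat kidney sections and sequenced on a NovaSeq6000, per the labels' protocols. The authors deposited upper-quartile (Q3) normalized signal, with a 75th percentile of 58.2 in each ROI by the values. Human builds, GRCh38 and hg38, appear in the submitters' processing notes; the tools are not given in the sources used here. Whole reads came out for 100% of gene values in 132 of 132 ROIs, within 0.0001 reads. Of 9271 gene names, 8432 match rat RefSeq symbols.

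From these values limma 3.58.1 (R 4.3.3, statmod 1.5.0) was run on log2(signal + 1), so folds of low genes are understated. The fit held 131 ROIs, 16 means of group and area, a plate term, a random block for well runs (correlation 0.132) and an intensity trend. Genes entered where 10% or more of ROIs exceeded 2 times their negative probe (8827; 444 were left out), and an adjusted p (Benjamini-Hochberg over all 8827) under 0.05 was called. Percentages of all genes called are from this fit, also where counts from another setting stand beside them. Runs are neighbouring wells and are not stated to be animals. edgeR 4.0.16 on the reads was an alternative, with a pseudocount of 5, other filters, quantile normalization, no plate term, single plates, run means, deeper ROIs, a depth covariate and leaving out runs. The ratio to the negative probe was added after seeing the data. Only the limma fit was run on simulated data, for the RM average alone. Those data held no effect of run or plate, so they do not test the p-values given here for shared animals, and the outcome is not given.

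The 4 genes and the gene lists were chosen with earlier results of these data known. Named were the members, the 5 genes of highest correlation with each, and up to 3 called genes per list in the averages and in Sham glomeruli over cortex; list genes named elsewhere, for single areas, were chosen after their values were seen. One gene that this rule names is not reported here. Mesangial, immune, loop of Henle and collecting duct markers were summarised too: in RM glomeruli 0 of 5, 1 of 6, 0 of 4 and 0 of 2 tested were higher and none lower, beside 12.8% of all genes called. In HS glomeruli Acta2 was called higher (log2 1.06 ± 0.30), and Gata3 (log2 -0.69 ± 0.21) and Slc12a1 (log2 -1.01 ± 0.32) lower, beside 9.52% of all genes. In RM-HS glomeruli C1qa was called higher (log2 0.72 ± 0.22), beside 6.62%.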

Additional observations from a re-analysis of the deposited data

Results flagged for a closer look

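In 5 of 64 sets of gene, group and area, 1 ROI stood apart by the gap to its nearest neighbour relative to the range of its set; chance gives about 1 in 20 sets. Sema3g signal was 30.2 in 1 RM cortex ROI of RM run 2, against 46.2 in the nearest. It was 101 in 1 Sham cortex ROI of Sham run 2, against 57.1 in the nearest, and 1774 in 1 Sham glomerular ROI of Sham run 3, against 853. Smad6 signal was 24.3 in 1 RM-HS cortex ROI of RM-HS run 2, against 32.7 in the nearest. It was 349 in 1 Sham glomerular ROI of Sham run 3, against 186. Both Sham glomerular values came from the same ROI, the shallowest of the table with 17894 reads, of which 61 were Sema3g and 12 Smad6.

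The injury effect differed between the 4 areas by the F test for Flt1 in RM (limma adjusted p = 3.92e-08), HS (0.0104) and RM-HS (7.60e-06), for Sema3g in RM (0.0163), and for Smad6 in HS (0.0099) and RM-HS (0.0281). In glomeruli the effects of RM and HS on Flt1 did not add up in the fit reported here, with an interaction of -1.18 on the log2 scale. That call was lost with quantile normalization, in edgeR, with run means and without RM-HS run 2.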

How the results depend on the processing

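Each result was recomputed under 12 other settings and without each of 12 well runs, and of 2283 such values for single genes 2050 kept their direction and their side of the threshold, 87 lost a call, 74 gained one and 72 changed sign. In 71 of the 72 neither value was called, and in the 1 left Sema3g in HS glomeruli was called lower without HS run 3 (log2 -0.76). The calls of Flt1 in RM glomeruli and of Sema3g and Smad6 in Sham glomeruli over cortex held under every setting that kept the gene. No paired analysis was possible because the labels carry no replicate numbers that groups share; areas of 1 well run were tied by the random block. Few reads limit glomeruli most, where 6 ROIs held under 50000, and HS rests on 1 Sham run of its plate. The cause of the changes was not tested.

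Log2 fold changes that changed sign, and averages over areas that changed call, were as follows, with some comparisons of areas. The fit with no plate term also held the RM ROI of plate A. In it Ptprb was 0.30 in the RM average and 0.46 in the HS average. Sema3g was then -0.026, 0.0102 and -0.049 in the RM, HS and RM-HS averages and 0.022 in HS medulla, and Flt1 was -0.014 at the RM-HS junction. With 1 mean per run, the averages were 0.42 for Ptprb in RM, -0.59 for Smad6 in RM, -0.017 for Sema3g in RM-HS and -0.67 for Smad6 in RM-HS, and Smad6 was 0.0035 in HS medulla. With quantile normalization, the RM-HS averages were 0.41 for Flt1, 0.43 for Ptprb and -0.0067 for Sema3g, and the RM average of Sema3g was -0.037. Quantile values were also -0.16 for Sema3g in HS glomeruli, 0.057 and 0.022 for Smad6 at the HS junction and in HS medulla, 0.0155 for Smad6 in Sham junction over cortex, and 0.0799 for the Sema3g interaction in glomeruli. In edgeR on reads, Ptprb was 0.47 in the HS average, 0.40 in the RM-HS average and -0.10 in HS medulla. There Flt1 was 0.35 in the RM-HS average and Smad6 0.092 in HS medulla. Without ROIs under 50000 reads, the HS averages were 0.53 for Sema3g and 0.014 for Smad6, and the RM-HS average of Ptprb was 0.39. Flt1 was then -0.076 in Sham glomeruli over cortex and -0.014 at the RM-HS junction, and Smad6 was 0.043 in HS medulla and -0.12 in the glomerular interaction. On plate C alone, the RM-HS averages were 0.34 for Flt1 and 0.39 for Ptprb, Flt1 was -0.0698 in Sham glomeruli over cortex and -0.055 at the RM-HS junction, and Smad6 was 0.067 in Sham junction over cortex. With the filter at 50% of ROIs, which drops Smad6, the RM-HS average of Ptprb was 0.39. As a ratio to the negative probe, Sham glomeruli over cortex gave 0.50 for Flt1 and 0.73 for Ptprb, and Sema3g was -0.0595 in the RM-HS average. By that ratio Smad6 was 0.024 in HS medulla, Flt1 -0.03 and Ptprb -0.057 in RM-HS medulla, and Sham junction over cortex was 0.0029 for Ptprb and 0.12 for Smad6. Sham medulla over cortex was called by that ratio for Flt1 (0.56), Ptprb (0.81) and Sema3g (0.58) too, and for Ptprb also in edgeR (0.34) and without ROIs under 50000 reads (0.28). That ratio moved the median of all genes by 0.49 in Sham glomeruli over cortex, by 0.52 in Sham medulla over cortex and by 0.25 in RM glomeruli. On plate E alone, Sema3g was -0.50 in HS glomeruli and 0.071 in HS medulla, and Smad6 was 0.13 at the HS junction and 0.031 in HS medulla. With depth as a covariate, Flt1 was -0.038 in HS cortex, -0.0039 at the RM-HS junction and -0.018 in Sham medulla over cortex.

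Leaving out 1 run at a time gave these ranges. For Flt1 they were 0.47 to 0.72 in the RM average, 0.22 to 0.47 in the RM-HS average, -0.062 to 0.094 in HS cortex, -0.12 to 0.017 in HS medulla, -0.059 to 0.13 at the RM-HS junction, -0.0896 to 0.17 in Sham glomeruli over cortex and -0.076 to 0.20 in Sham medulla over cortex. For Ptprb they were 0.37 to 0.48 in the RM average, 0.051 to 0.53 in the HS average, 0.33 to 0.46 in the RM-HS average, -0.11 to 1.07 in HS glomeruli, -0.051 to 0.29 in HS medulla and -0.99 to 0.20 for the glomerular interaction. For Sema3g the averages were -0.086 to 0.16 in RM, -0.34 to 0.089 in HS and -0.091 to 0.15 in RM-HS. In glomeruli Sema3g was -0.76 to 1.04 in HS, -0.18 to 0.71 in RM-HS and -1.38 to 0.43 for the interaction. Elsewhere Sema3g was -0.21 to 0.064 in RM cortex, -0.19 to 0.011 in HS medulla, -0.21 to 0.073 in RM-HS cortex, -0.24 to 0.024 at the RM-HS junction, -0.14 to 0.027 in RM-HS medulla and -0.026 to 0.16 in Sham medulla over cortex. For Smad6 they were -0.73 to -0.44 in the RM average, -0.77 to -0.51 in the RM-HS average, -0.11 to 0.24 in HS cortex, -0.27 to 0.095 at the HS junction, -0.062 to 0.057 in HS medulla and -0.22 to 0.067 in Sham junction over cortex.

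Between RM-HS and HS in medulla 1 member was called with no plate term, with quantile normalization, in edgeR, without ROIs under 50000 reads and against the negative probe. Without ROIs under 50000 reads, which left only HS run 3 among HS glomeruli, 2 members were called between RM-HS and HS there. In edgeR 1 was called in the average of RM-HS over RM, 1 in RM-HS over RM in medulla and 1 in the average of RM-HS over HS. Without 1 run, the number called ran over 0 to 1 in RM-HS over RM in glomeruli, 0 to 1 in the average and in medulla of RM-HS over HS, and 0 to 3 in RM-HS over HS in glomeruli. The number of all genes called also moved. It was 733 in the RM average (426 with run means, 3574 in edgeR, 294 to 2232 without 1 run), 15 in the HS average (0 on plate E alone, 219 with no plate term, 12 to 1017 without 1 run) and 603 in the RM-HS average (236 as a ratio to the negative probe, 2472 in edgeR, 193 to 1553 without 1 run). In glomeruli it was 1133 in RM (230 in edgeR, 2216 on plate C alone, 562 to 1948 without 1 run), 840 in HS (22 in edgeR, 1561 with no plate term, 684 to 2286 without 1 run) and 584 in RM-HS (60 in edgeR, 1643 on plate C alone, 272 to 1254 without 1 run). In Sham glomeruli over cortex it was 3388 (381 in edgeR, 3708 with no filter, 2293 to 3750 without 1 run).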
